A study of Mus musculus with 24 samples.

Results

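miR-126a is an endothelial microRNA, and its 2 mature arms were followed here in the subcutaneous fat of female mice. The arms were chosen by their accession in the deposited table of read counts. miR-126a-3p is MIMAT0000138 and miR-126a-5p is MIMAT0000137, and they are 2 of the 2045 mature microRNA loci in the table. Small RNA had been sequenced in 24 libraries of 4 groups with 6 libraries each, which were trained kinase dead, sedentary kinase dead, trained wild type and sedentary wild type. The labels do not name the kinase, the mouse strain, the age of the mice or the fat pad. Every group was female and ate chow. The training protocol was a motorised treadmill run of 1 hour at 16 m/min on 5 days a week for 6.5 weeks, with a running wheel always available. The same protocol text stands on sedentary libraries, and it leaves unsaid whether sedentary mice also had a wheel. No label ties a library to an animal of its own, so the p-values reflect variation among these 24 libraries, part of which may be technical.

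MicroRNAs are cut from a hairpin whose arms give a 5p and a 3p strand, and a strand loaded into Argonaute finds messenger RNAs mainly by its seed. miR-126a lies within Egfl7, which encodes a protein secreted by endothelial cells, and it is best known from the lining of blood vessels. In mouse and zebrafish, the 3p arm restrains Spred1 and Pik3r2, which dampen signalling from the vascular growth factor VEGF, and in mouse endothelium the 5p arm restrains Dlk1. Adipose tissue is densely supplied with capillaries, whose walls are endothelium.

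On the mouse build GRCm38 the miR-126a hairpin lies at chr2:26591357-26591429 on the plus strand, with miR-126a-5p at chr2:26591365-26591385 and miR-126a-3p at chr2:26591402-26591423. Egfl7 runs from 26580014 to 26593120 on the same strand. The hairpin is intronic in 7 protein-coding transcripts and 1 nonsense-mediated decay transcript of Egfl7 (GENCODE), and it lies in exon 4 of a retained-intron transcript. In the protein-coding transcripts with 10 exons it sits in intron 7, between 26591064 and 26591663. The sequences below, from RefSeq on GRCm38.p6, show how the arms overlap miR-126b, which lies on the opposite strand at the same place. In the hairpin the mature 3p arm is in capitals, and in the mature sequences the seed (bases 2 to 8) is in capitals.
miR-126a hairpin: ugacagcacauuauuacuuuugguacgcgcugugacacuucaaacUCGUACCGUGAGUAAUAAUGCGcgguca
miR-126a-3p: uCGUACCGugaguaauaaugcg
miR-126b-5p: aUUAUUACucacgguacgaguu
miR-126b-3p: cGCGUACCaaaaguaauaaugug

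The seed of miR-126a-3p occurred in 1 of the 1738 mature mouse entries of the RefSeq table, which is miR-126a-3p itself. miR-126a-3p and miR-126b-5p share a stretch of 19 bases as reverse complements. Over all libraries miR-126a-3p had 10045535 reads and miR-126b-5p had 10045633, and in any library the counts differed by 0 to 17 reads. miR-126a-5p had 799951 reads against 800005 for miR-126b-3p, with differences of 0 to 8 reads. Such near-equal counts cannot be told apart as miR-126a or miR-126b in the deposited table, and the miR-126b rows were left out of the description of levels.

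Total counts ranged from 1.60 to 23.6 M reads per library. They averaged 10.8 M in trained kinase dead, 6.71 M in sedentary kinase dead, 9.95 M in trained wild type and 6.59 M in sedentary wild type. Both arms passed the filter on low counts. A cluster of 7 libraries stood apart by microRNAs of lymphocytes. Levels are given in CPM, read counts scaled to a common library total. The 7 held 3460 to 6954 CPM of miR-150-5p, a microRNA of mature lymphocytes, against 551 to 1005 CPM in the other 17. They were trained kinase dead replicates 3 and 6, sedentary kinase dead replicates 5 and 6, trained wild type replicates 1 and 2, and sedentary wild type replicate 1. The labels give no batch for them. No pair of libraries agreed within sampling noise, since chi-square over its degrees of freedom was at least 29.9 for every pair.

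miR-126a-3p was the more abundant arm in all 24 libraries and averaged 49247 ± 11118 CPM (SD, n = 24), scaled by TMM factors. With loci that share reads across strands counted once, it ranked 3 of 627 in level, below miR-21a-5p at 104645 CPM and above miR-148a-3p at 33466 CPM. miR-126a-5p averaged 3833 ± 567 CPM (SD, n = 24) and ranked 43, between miR-125b-5p at 3865 CPM and miR-92a-3p at 3366 CPM. In a whole-tissue library, fewer endothelial cells and less miR-126a per cell cannot be told apart.

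In trained kinase dead libraries miR-126a-3p ranged from 37814 to 55547 CPM with a median of 42661 CPM. In sedentary kinase dead libraries it ranged from 29157 to 71944 CPM with a median of 56830 CPM. None of the 6 trained kinase dead libraries lay above the sedentary kinase dead median, yet all 6 lay inside the sedentary range. In trained wild type libraries the 3p arm ranged from 44619 to 56604 CPM with a median of 50227 CPM. In sedentary wild type libraries it ranged from 33044 to 68959 CPM with a median of 45495 CPM. All 6 trained wild type libraries lay inside the sedentary wild type range, and 5 of them lay above its median. The highest library of a group held 1.47 times the lowest in trained kinase dead, 2.47 times in sedentary kinase dead, 1.27 times in trained wild type and 2.09 times in sedentary wild type.

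Relative to its mean, miR-126a-5p varied less than the 3p arm in every group except trained wild type. There the SD was 13.6% of the mean for the 5p arm, against 7.79% for the 3p arm. The 5p arm ranged from 3595 to 4223 CPM with a median of 3753 CPM in trained kinase dead libraries. In sedentary kinase dead libraries it ranged from 2999 to 4833 CPM with a median of 3562 CPM. All 6 trained kinase dead libraries lay above the sedentary kinase dead median and within its range. In trained wild type the 5p arm ranged from 3571 to 5083 CPM with a median of 3874 CPM, and in sedentary wild type from 2954 to 4976 CPM with a median of 3752 CPM. Of the trained wild type libraries, 4 of 6 lay above the sedentary wild type median, and 1 lay above every sedentary wild type library.

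**Figure D1:**
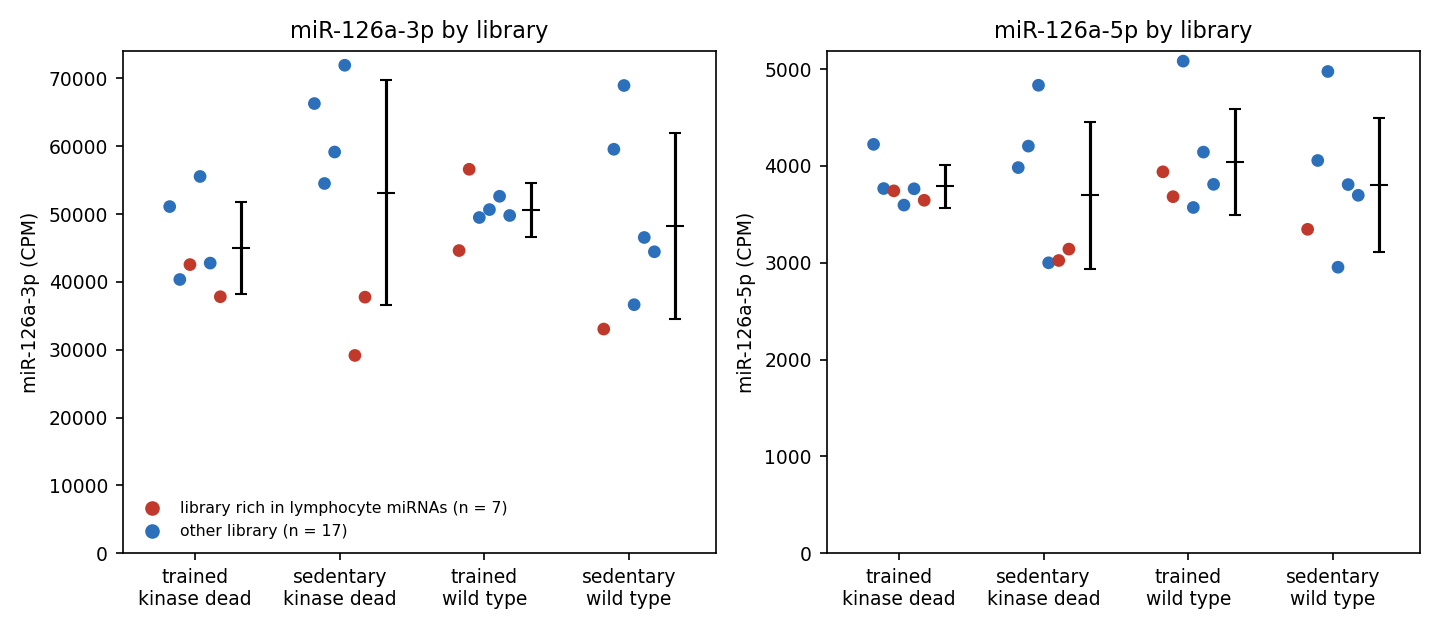
Level of miR-126a-3p (left) and miR-126a-5p (right) in CPM by group, with 1 point per library (6 per group), and beside the points the mean with its SD. Red points are the 7 libraries rich in lymphocyte microRNAs. The groups overlap for both arms, and for the 3p arm, with all libraries, the sedentary groups are spread more widely than the trained groups. Without the red points the 3p SD is 7698 CPM in sedentary and 7099 CPM in trained kinase dead, and 12890 CPM in sedentary and 1411 CPM in trained wild type.

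Set in order of mean level, miR-126a-3p stood at 53135 ± 16593 CPM in sedentary kinase dead, 50633 ± 3944 CPM in trained wild type, 48198 ± 13712 CPM in sedentary wild type and 45024 ± 6822 CPM in trained kinase dead (SD, n = 6 each). The order for miR-126a-5p was another one, with 4038 ± 549 CPM in trained wild type, 3806 ± 690 CPM in sedentary wild type, 3789 ± 223 CPM in trained kinase dead and 3697 ± 759 CPM in sedentary kinase dead (SD, n = 6 each). For both arms, each group mean differed from the next in order by less than the SD of either group. Group membership held 5.77% of the variance of log2 CPM for miR-126a-3p and 6.17% for miR-126a-5p.

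The design asks whether training, genotype or their combination altered microRNAs in this fat. Neither arm of miR-126a passed the threshold in any of the 6 comparisons by edgeR's quasi-likelihood test (adjusted p under 0.05). The share of all 654 tested features that passed was 0% in each of the 6, so a count of 0 of 2 members is also the background. In this fit of all 24 libraries, neither arm had an unadjusted p under 0.05 in any comparison by edgeR, the smallest being 0.213. At an unadjusted p under 0.05, edgeR gave 38 features for training in wild type, 17 for training in kinase dead, 37 for training averaged over genotypes, 13 for the interaction, 5 for genotype in sedentary mice and 6 for genotype in trained mice. DESeq2 also called 0 features in each, with 41, 17, 41, 14, 6 and 11 at an unadjusted p under 0.05 in the same order.

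After training in kinase dead mice, the log2 fold change of miR-126a-3p was -0.24 (SE 0.19, 95% interval -0.63 to 0.15, edgeR adjusted p = 0.997). That of miR-126a-5p was 0.04 (SE 0.13, interval -0.24 to 0.31, edgeR adjusted p = 0.997). In wild type mice training gave 0.07 for the 3p arm (SE 0.19, interval -0.31 to 0.46) and 0.09 for the 5p arm (SE 0.13, interval -0.19 to 0.36), both with an edgeR adjusted p of 0.994. The difference between the training effects, kinase dead minus wild type, was -0.31 for the 3p arm (SE 0.26, interval -0.86 to 0.24) and -0.05 for the 5p arm (SE 0.19, interval -0.44 to 0.34). Averaged over genotypes, training gave -0.08 for the 3p arm (interval -0.36 to 0.19) and 0.06 for the 5p arm (interval -0.13 to 0.25). These intervals bound what the libraries allow: for miR-126a-5p averaged over genotypes, a log2 fold change above 0.25 or below -0.13 lay outside it.

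Both genotype comparisons gave intervals that hold 0 as well. In trained mice, kinase dead against wild type gave a log2 fold change of -0.17 for miR-126a-3p (SE 0.19, interval -0.56 to 0.22) and -0.09 for miR-126a-5p (SE 0.13, interval -0.37 to 0.18). Of the trained kinase dead libraries, 4 of 6 lay below the lowest trained wild type library in the 3p arm. In sedentary mice, kinase dead against wild type gave 0.14 for the 3p arm (SE 0.19, interval -0.25 to 0.53) and -0.04 for the 5p arm (SE 0.13, interval -0.32 to 0.23). The value of the 3p arm in sedentary mice was 0.04 without sedentary kinase dead replicate 4 and 0.31 without sedentary wild type replicate 3.

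**Figure D2:**
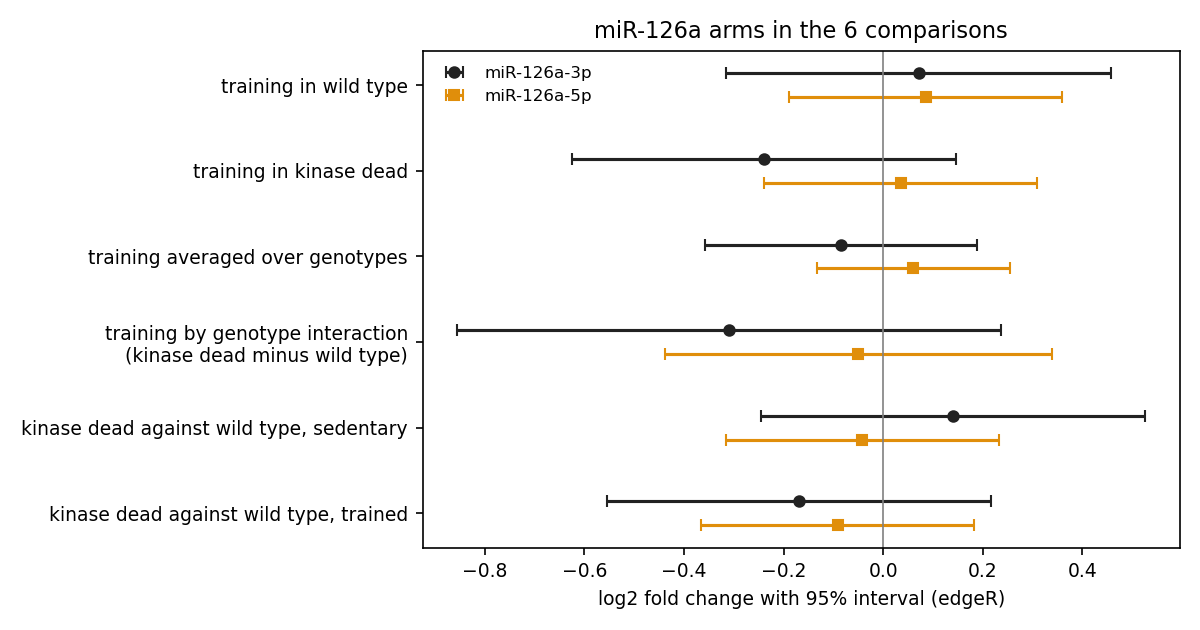
Log2 fold change of miR-126a-3p (circles) and miR-126a-5p (squares) in the 6 comparisons of the edgeR fit, with the 95% interval as a bar. Every interval holds 0, and in this fit of all 24 libraries the interval of the 5p arm is the narrower in each comparison.

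The libraries rich in lymphocyte microRNAs lay low in miR-126a-3p. They held 29157 to 56604 CPM of it, against 36638 to 71944 CPM in the other 17 libraries, and they made up 5 of the 7 lowest libraries and 1 of the 7 highest. In miR-126a-5p they held 3023 to 3939 CPM, against 2954 to 5083 CPM in the others. The part of the lymphocyte share in the level of miR-126a was not tested.

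Without those 7 libraries, the 3p arm averaged 47445 ± 7099 CPM in trained kinase dead mice, with a range of 40355 to 55547 CPM (SD, n = 4). It averaged 62975 ± 7698 CPM in sedentary kinase dead mice, with a range of 54510 to 71944 CPM (SD, n = 4). The log2 fold change of training was then -0.41 (SE 0.17, 95% interval -0.77 to -0.05, edgeR unadjusted p = 0.0265). The edgeR adjusted p was 0.661 over 642 features, of which 0 passed the threshold and 46, this arm among them, had an unadjusted p under 0.05. Leaving out sedentary kinase dead replicate 5 alone gave -0.42 (SE 0.17, edgeR unadjusted p = 0.0222, adjusted p = 0.710), while leaving out sedentary kinase dead replicate 4 gave -0.13 (SE 0.19). In wild type mice without the 7, the 3p arm averaged 50643 ± 1411 CPM in trained libraries (SD, n = 4) and 51229 ± 12890 CPM in sedentary libraries (SD, n = 5). The log2 fold change of training in wild type was then -0.0021 (SE 0.16). For kinase dead against wild type in sedentary mice, the log2 fold change of the 3p arm without the 7 was 0.32 (SE 0.16, 95% interval -0.02 to 0.65, edgeR adjusted p = 0.984). Keeping all 24 libraries, with the lymphocyte cluster as a covariate, gave other values for the 3p arm. Training then gave -0.20 in kinase dead mice (SE 0.16) and 0.17 in wild type mice (SE 0.16). Kinase dead against wild type in sedentary mice gave 0.18 (SE 0.16).

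The arm ratio, the reads of miR-126a-3p per read of miR-126a-5p in the same library, needs no library size. It was 11.9 ± 1.84 in trained kinase dead, with a range of 10.4 to 15.4, and 14.6 ± 5.13 in sedentary kinase dead, with a range of 9.64 to 23.99 (SD, n = 6 each). In trained wild type it was 12.7 ± 2.01, with a range of 9.74 to 15.4, and in sedentary wild type 12.5 ± 1.66, with a range of 9.88 to 14.7 (SD, n = 6 each). The groups overlapped, and 1 library stood above the rest. Sedentary kinase dead replicate 4 had a ratio of 23.99, with the highest 3p level of all libraries and a 5p level of 2999 CPM. In that library the 5p arm made up 4.002% of the reads of both arms (95% Wilson interval 3.92 to 4.09%, which covers counting error only), against up to 9.39% in sedentary kinase dead replicate 5. Without replicate 4 the sedentary kinase dead ratio was 12.7 ± 2.53 (SD, n = 5).

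On the log2 scale the ratio differed by -0.24 after training in kinase dead mice (SE 0.21, two-sided exact permutation p = 0.281) and by 0.02 in wild type mice (SE 0.13, exact permutation p = 0.864). Kinase dead minus wild type was 0.17 in sedentary mice (SE 0.20, exact permutation p = 0.465) and -0.10 in trained mice (SE 0.13, exact permutation p = 0.465). Without sedentary kinase dead replicate 4, the difference after training in kinase dead mice was -0.085 and that between genotypes in sedentary mice was 0.011. Without sedentary kinase dead replicate 5 they were -0.35 and 0.27. Adjusted over these 4 tests, with all libraries, the exact permutation p-values were 0.620, 0.864, 0.620 and 0.620 in the order given. The smallest p that 6 against 6 libraries allow is 0.0022.

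**Figure D3:**
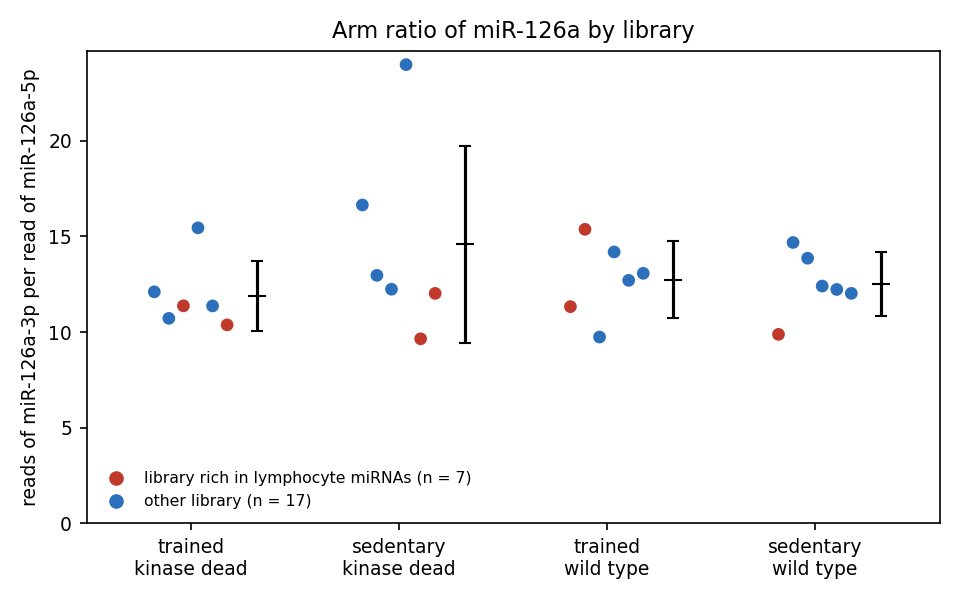
Reads of miR-126a-3p per read of miR-126a-5p by group, with 1 point per library and the mean with its SD beside the points. The 4 groups overlap, and sedentary kinase dead replicate 4, at 23.99, lies above the other 23 libraries.

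Among 34 hairpins with both arms at 100 CPM or more, miR-126a ranked 6 in the excess of 3p over 5p reads, with a mean log2 ratio of 3.66. The spread of its ratio within groups was an SD of 0.29 on the log2 scale, against a median of 0.28 over the 34, and ranked 16. The neighbours in spread were the hairpins Mirlet7c-2 just above and Mir148a just below. Sedentary kinase dead replicate 4 had the highest 3p to 5p ratio in 4 of the 34 hairpins, and trained kinase dead replicate 2 in 6.

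The arms also differed in how much they varied. Pooled over the 4 groups, the within-group SD of log2 CPM was 0.35 for miR-126a-3p and 0.22 for miR-126a-5p. Trained wild type went the other way, with an SD of 7.79% of the mean CPM for the 3p arm and 13.6% for the 5p arm. Without the 7 lymphocyte-rich libraries, the SE of the training effect was near equal for the arms. It was 0.17 for each in kinase dead mice and 0.16 for each in wild type mice. Over 87 features with a mean of 1000 CPM or more, the SD ranged from 0.14 to 1.81 with a median of 0.27. Counted from the least variable, miR-126a-3p ranked 65, between miR-199b-5p and miR-181a-5p, and miR-126a-5p ranked 15, between let-7f-5p and miR-10b-5p.

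Covariation was computed within the 17 libraries and within the 7 lymphocyte-rich ones, because the clusters stand apart. In the 17, log2 CPM of the arms had a Pearson r of 0.30 (permutation p = 0.245) and a Spearman rho of 0.32 (permutation p = 0.210). Without the 2 libraries farthest from the 3p median, sedentary kinase dead replicate 4 and sedentary wild type replicate 4, r was 0.48. Single libraries moved the value in both directions. Without sedentary kinase dead replicate 4 alone r was 0.64 (permutation p = 0.0082), without sedentary wild type replicate 4 alone it was 0.079 (permutation p = 0.774), and without sedentary wild type replicate 3 alone it was 0.17 (permutation p = 0.538). In the 7 lymphocyte-rich libraries r was 0.74 (exact permutation p = 0.0599) and rho 0.86 (exact permutation p = 0.0238), and r was 0.74 without the 2 farthest libraries. Leaving out 1 of the 7 at a time gave 0.56 to 0.85. The 7 comprise 2, 2, 2 and 1 libraries of the 4 groups, too few to say whether the relation holds within groups.

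**Figure D4:**
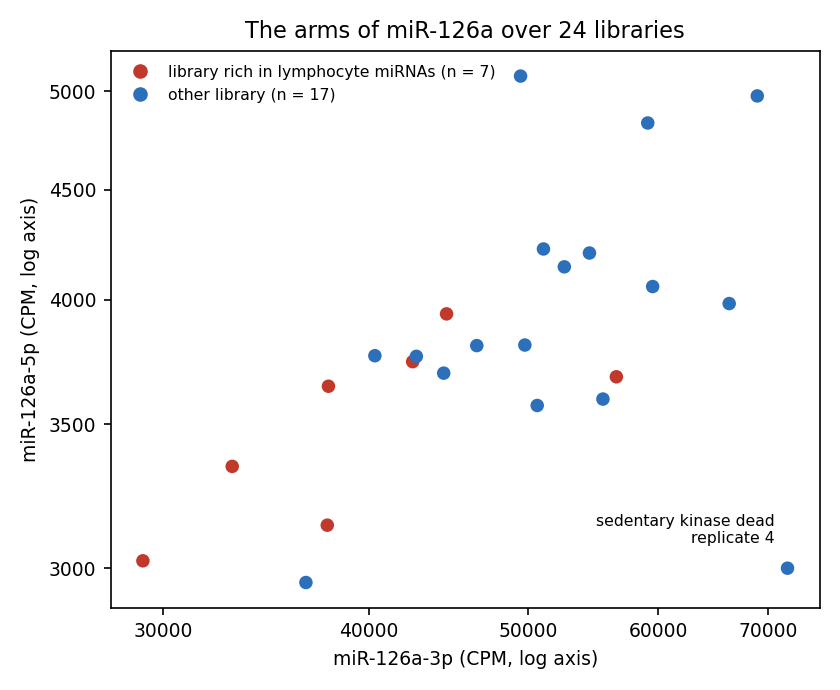
miR-126a-5p against miR-126a-3p, both in CPM on log axes, with 1 point per library. Among the 17 other libraries (blue), sedentary kinase dead replicate 4 has the highest 3p level of all and a 5p level of 2999 CPM, and the 7 lymphocyte-rich libraries (red) lie at 56604 CPM of the 3p arm or less.

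Each arm was also compared with 8 microRNAs that stand for cell types a fat pad can hold. They were miR-139-5p (endothelium), miR-143-3p (smooth muscle), miR-150-5p (lymphocytes), miR-223-3p (myeloid cells), miR-451a (red blood cells), miR-1a-3p (striated muscle), miR-200a-3p (epithelium) and miR-122-5p (liver). For these relations the 2 farthest libraries are those farthest from the median of the cell type microRNA, so they differ between relations. None of the 16 relations in either cluster passed an adjusted p of 0.05. At an unadjusted p under 0.05 there were 1 with the 3p arm and 2 with the 5p arm in the 17 libraries, and 1 with the 3p arm and 0 with the 5p arm in the 7. In the 17 libraries, miR-139-5p had an r of 0.41 with miR-126a-3p (rho 0.43, 0.57 without the 2 farthest libraries, permutation p = 0.0980, adjusted p = 0.314). miR-200a-3p had an r of -0.49 with the 3p arm (rho -0.37, -0.41 without the 2 farthest, permutation p = 0.0468, adjusted p = 0.249). With the 5p arm, miR-122-5p had an r of -0.56 (rho -0.49, -0.48 without the 2 farthest, permutation p = 0.0196, adjusted p = 0.249). miR-150-5p had an r of 0.51 with the 5p arm (rho 0.47, 0.42 without the 2 farthest, permutation p = 0.0351, adjusted p = 0.249).

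miR-150-5p pointed in opposite directions with miR-126a-3p in the clusters. In the 7 lymphocyte-rich libraries its r with the 3p arm was -0.86 (rho -0.75, -0.87 without the 2 farthest, exact permutation p = 0.0153, adjusted p = 0.244). In the other 17 it was 0.43 (rho 0.35, 0.18 without the 2 farthest, permutation p = 0.0834, adjusted p = 0.314). The difference between the clusters was not tested. Library size had an r of -0.03 with miR-126a-3p in the 17 (rho -0.15, permutation p = 0.908, adjusted p = 0.908 over 6 relations), and -0.64 without sedentary wild type replicate 4 and trained kinase dead replicate 2. Trained libraries were on average the deeper ones in both genotypes, and the part of depth in the comparisons of training was not tested.

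The features most like miR-126a-3p were taken by Pearson r of log2 CPM over the 17 libraries, among 650 features. These values are descriptions, since the libraries share depth and composition. miR-143-5p, the minor arm of a microRNA listed here under smooth muscle and pericytes, was first with r = 0.87 (rho 0.83). Its cell of origin in this fat was not tested. Without the 2 libraries farthest from the miR-143-5p median, r was 0.77. In the 7 lymphocyte-rich libraries, which the choice did not use, the r of miR-143-5p was 0.94 (rho 1.0, and r = 0.85 without the 2 farthest, taken in the same way). miR-143-5p averaged 801 CPM and ranged from 586 to 1195 CPM in the 17 and from 391.8 to 760 CPM in the 7. Its partner arm miR-143-3p, at 135497 CPM, had an r of 0.32 with miR-126a-3p in the 17.

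**Figure D5:**
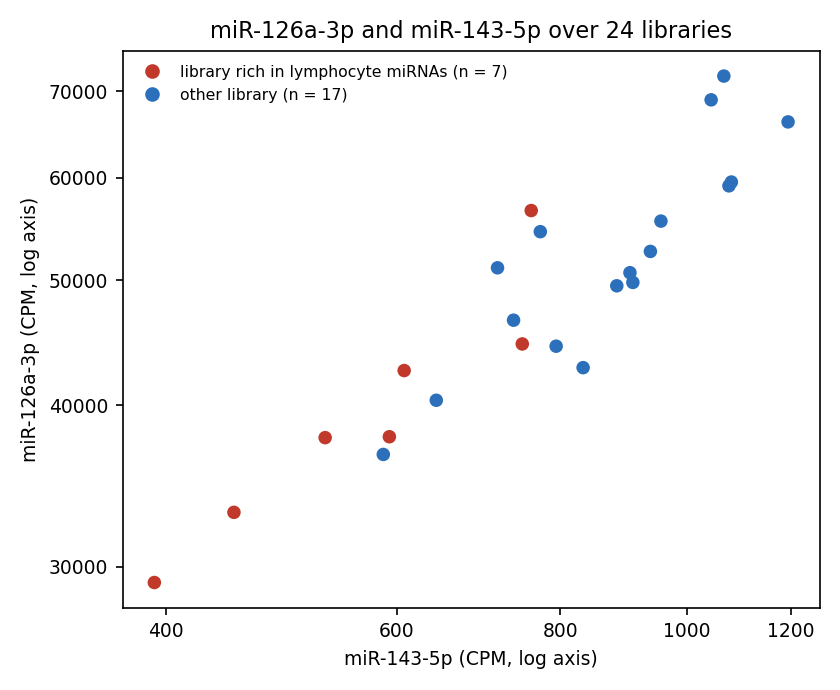
miR-126a-3p against miR-143-5p, both in CPM on log axes, with 1 point per library. The 17 other libraries (blue, r = 0.87) and the 7 lymphocyte-rich ones (red, r = 0.94) both run from low to high on each axis.

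Next came miR-24-2-5p with r = 0.83, together with the opposite-strand miR-3074-2-3p, which has the same r. They were followed by miR-542-5p with r = 0.82, and by miR-30e-3p and its opposite-strand partner miR-30f with r = 0.80. In the 7 lymphocyte-rich libraries r was 0.81 for miR-24-2-5p, 0.79 for miR-30e-3p and 0.25 for miR-542-5p, which averaged 1.496 CPM. The least like were miR-433-3p with r = -0.81, miR-92a-3p at its locus of 475 CPM with r = -0.79, and miR-299a-3p with r = -0.77. Their r in the 7 was -0.83, -0.88 and -0.59 in the same order. Where loci share 1 mature sequence, the locus with the most extreme r was listed. miR-92a-3p has another locus at 3366 CPM, whose r is not given here.

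The list for miR-126a-5p shared no feature with that for the 3p arm. miR-361-5p had r = 0.76, miR-29a-5p 0.73, miR-708-5p 0.72, miR-669a-3-5p 0.67, miR-190a-3p 0.66 and miR-33-3p 0.63 in the 17 libraries. Of these, miR-669a-3-5p averaged 1.17 CPM, miR-190a-3p 1.16 CPM and miR-33-3p 4.85 CPM, so their r in either cluster rests on few reads. In the 7 lymphocyte-rich libraries r was 0.58 for miR-708-5p, 0.15 for miR-29a-5p, 0.14 for miR-33-3p, -0.33 for miR-669a-3-5p, -0.40 for miR-361-5p and -0.85 for miR-190a-3p. The lowest values in the 17 were -0.68 for miR-381-3p, -0.63 for miR-532-5p and -0.62 for miR-1306-3p.

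Other microRNAs known from endothelium were set beside miR-126a, and 0 of their 12 loci passed the edgeR threshold in any comparison. Over the 6 comparisons, 2 of their 72 edgeR p-values were under 0.05 unadjusted, both of miR-221-3p, which is named for this after its values were seen. For training in wild type this was 1 of 12, against 38 of all 654 features. For training averaged over genotypes it was 1 of 12, against 37 of 654. After training in kinase dead mice 2 of the 12 had a log2 fold change above 0 and 10 below, with a median of -0.08 against -0.02 over all 654 features. In wild type mice 7 were above and 5 below, with a median of 0.01 against -0.01. The most abundant was miR-139-5p at 1038 CPM, with a log2 fold change of training of 0.12 in kinase dead mice and 0.27 in wild type mice (SE 0.14 each). miR-151-3p, at 886 CPM, had -0.29 in kinase dead mice and 0.14 in wild type mice (SE 0.17 each). The summed level of the 12 loci ranged from 4067 to 5709 CPM in trained kinase dead, 4266 to 6161 CPM in sedentary kinase dead, 4374 to 5503 CPM in trained wild type and 4461 to 6005 CPM in sedentary wild type. The lymphocyte-rich libraries held 4067 to 5503 CPM of it and the other libraries 4303 to 6161 CPM.

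Markers of the other cell types were present in all groups, and 0 of their loci passed the edgeR threshold in any comparison, with 14 of 192 edgeR p-values under 0.05 unadjusted. Over all 654 features, the 6 comparisons gave 38, 17, 37, 13, 5 and 6 such p-values in the order given earlier. Of the 14, 7 were of striated muscle loci and 4 of red blood cell loci. For genotype in trained mice, 4 of the 6 striated muscle loci were under 0.05. They were the copies of miR-1a-3p (log2 fold changes -1.46 and -1.43) and of miR-133a-3p (-1.43 and -1.42), with each copy counted apart. The 4 smooth muscle and pericyte loci summed to 92492 to 128364 CPM in the lymphocyte-rich libraries and 118437 to 187639 CPM in the others, led by miR-143-3p and miR-145a-5p. The 7 epithelial loci, led by miR-200a-3p and miR-200b-3p, summed to 14311 to 17022 CPM in the lymphocyte-rich libraries and 15175 to 26372 CPM in the others. The 7 lymphocyte loci, led by miR-142a-5p and miR-150-5p, summed to 15369 to 25454 CPM against 3554 to 5554 CPM. The libraries were split by miR-150-5p, which is in this sum, so part of the gap was fixed in advance. The 4 myeloid loci, led by miR-223-3p and miR-511-3p, summed to 261 to 399 CPM against 240 to 432 CPM. The 4 red blood cell loci, led by miR-451a and miR-486-5p, summed to 1389 to 9759 CPM against 1343 to 5306 CPM. The 6 striated muscle loci, led by the copies of miR-1a-3p, summed to 471 to 1156 CPM against 711 to 8281 CPM, and miR-208b-3p had no tested locus. The part of these cell types in the level of miR-126a was not tested.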

How the data were processed

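For each of the 24 libraries the authors deposited raw, whole-number read counts at every mature microRNA locus. RNA was extracted with TRIzol and libraries made with a NEBNext small RNA kit, per the labels' protocols. The submitters' processing notes name the mouse build mm10 and the tools featureCounts, Bowtie2, Trim Galore and CASAVA 1.8.2. Settings for strand and overlapping loci were not given in the sources used here. Of the 2045 loci, 1670 were named by RefSeq coordinates and 375 by their GENCODE hairpin, and 344 had 0 reads. Counts were tested with edgeR 4.0.16 (R 4.3.3), with TMM factors, filterByExpr (654 features kept, 0.0166% of reads removed), 1 quasi-likelihood fit of the 4 groups and Benjamini-Hochberg adjustment over the 654. DESeq2 1.42.0 was an alternative. The fit was tested on simulated data. CPM values use TMM-scaled totals. Correlations use log2 CPM with a prior count of 2, with 100000 permutations or all 5040 orders for 7 libraries. Arm ratios were tested over all 924 groupings of 6 against 6, in Python 3.11.15 with scipy 1.17.1. Lymphocyte-rich libraries are those above the widest gap in miR-150-5p. In the rankings of level and spread and in the set of hairpins, loci that overlap on opposite strands were counted once. There the locus with more reads was kept, except that miR-126a was kept over miR-126b. The main fit, its 654 features, the library totals and the CPM values did not leave such loci out, miR-126b included. Replicate numbers follow accession order and pair nothing. Besides the arms, the text names the 8 cell type microRNAs, for each arm the 6 most like and 3 least like features, the 2 most abundant members of each of 7 marker lists, and neighbours in rank. The members and lists were chosen with earlier results of these data known.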

Additional observations from a re-analysis of the deposited data

Results flagged for a closer look

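The miR-126a-5p level of trained kinase dead replicate 1 was 4223 CPM, the highest of its group, and lay far from the other 5 libraries, which stood at 3595 to 3766 CPM. Its gap to the nearest of them was 0.728 of the whole range of the group, above Dixon's critical value of 0.625. Of 12 sets of 6 libraries examined in this way, this was the 1 flagged. Chance flags about 1 in 20 for each set, so 1 among 12 is not rare. Trained kinase dead had the narrowest spread of the 5p arm of the 4 groups, at 223 CPM (SD), and the library lay within the range of each of the other 3 groups.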

How the results depend on the processing

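No paired analysis was possible because the replicate numbers follow accession order and the labels tie no library to another. Neither arm passed the threshold under any of the 380 alternative values computed for the arms, with a smallest adjusted p of 0.484, and 23 of them changed sign. Without the lymphocyte-rich libraries, the log2 value turned to -0.0021 for miR-126a-3p and training in wild type, -0.071 for miR-126a-5p and training in kinase dead, 0.060 for miR-126a-5p and genotype in sedentary mice, and -0.079 for the arm ratio and training in wild type. Leaving out 1 library at a time gave, for miR-126a-3p, -0.029 to 0.20 for training in wild type, -0.42 to -0.13 for training in kinase dead, -0.18 to -0.024 for training averaged over genotypes, -0.49 to -0.20 for the interaction, 0.037 to 0.31 for genotype in sedentary mice and -0.26 to -0.13 for genotype in trained mice. For miR-126a-5p it gave -0.078 to 0.086 for training in kinase dead, -0.0066 to 0.098 for training averaged over genotypes, -0.20 to 0.014 for the interaction and -0.11 to 0.097 for genotype in sedentary mice. The arm ratio ranged from -0.045 to 0.095 for training in wild type, -0.35 to -0.085 for training in kinase dead, 0.011 to 0.27 for genotype in sedentary mice and -0.17 to -0.038 for genotype in trained mice. The r of the arms ranged from 0.079 to 0.64 in the 17 libraries and from 0.56 to 0.85 in the 7, where centring on group means, with at most 2 libraries a group, gave -0.10. With the lymphocyte cluster as a covariate, 1 feature passed for training in wild type and 6 for training averaged over genotypes, neither arm among them. Of the relations with cell type microRNAs, 1 passed in the 17 when centred on group means, which was miR-150-5p with miR-126a-3p (r = 0.69, permutation adjusted p = 0.0341). In the 7, 1 passed with library totals in place of TMM, the same pair (r = -0.95, exact permutation adjusted p = 0.0063). Over all 24 libraries, centred on group and cluster means, that pair had r = 0.28 (permutation adjusted p = 0.553). Each adjustment covered the 16 relations of 1 setting and not the several settings. The causes were not tested. Without TMM the 3p arm averaged 48761 CPM, and with opposite-strand loci left out 52983 CPM. Counting error is small for both arms, and the difference in depth between trained and sedentary libraries was not corrected beyond the scaling.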
